A study of Mus musculus with 2 samples.

Results

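The AP-1 and Egr immediate early factors are 10 genes, chosen by symbol alone: Fos, Fosb, Fosl1 and Fosl2 of the Fos family, Jun, Junb and Jund of the Jun family, and Egr1, Egr2 and Egr3 of the Egr family. All 10 were found among the 22558 genes of both libraries. RNA was sequenced from tumour-initiating cells (TIC) and from non-tumorigenic cells (NTC), both dissociated from breast tumours of mice of the inbred FVB strain and sorted at once by flow cytometry with no treatment. The labels give 1 library for TIC and 1 for NTC, each amplified from 15 ng of total RNA. The tumour model, any transgene, the sorting antigens, the age of the mice and how many animals were pooled are not stated in the labels. With a single library on each side there is no SD and no test, and every difference below is one between these libraries.

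AP-1 is a dimer of basic leucine zipper (bZIP) proteins that binds DNA as a Jun protein paired with a Fos protein, as paired Jun proteins, or as a Jun protein with a relative such as an ATF protein. Fos proteins do not form stable dimers with each other, so Jun proteins are the common partner. The Egr proteins are zinc finger factors that bind GC-rich sites. Most of these genes are immediate early genes: their transcription starts within minutes of a growth factor, stress or other signal, from proteins already in the cell, through serum response factor, its ETS partners and CREB-type factors. They are also known to be induced by enzymatic dissociation of tissue, and the part of their levels that arose while the cells were handled was not tested, since no undissociated sample was analysed here.

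Levels are in FPKM, fragments scaled to transcript length and to the mapped fragments of a library, and the ratio of TIC to NTC is log2((TIC + 1)/(NTC + 1)), which understates differences of low genes. From steps in the low values of short receptor genes, a transcript of 1 kb at 1 FPKM received roughly 21 reads in TIC and 21.6 in NTC. The same set window of values was used for both libraries, so it bounds these estimates and their near equality is no result. The 12004 genes whose mean over both libraries reached 1 FPKM are called measured. The TIC library was high in basal mammary genes and the NTC library in luminal ones. All 10 basal markers passed 2-fold toward TIC, against 14.6% of all measured genes. Among them Krt5 had 782.8 FPKM in TIC and 4.13 FPKM in NTC. Of 12 luminal markers, 11 passed 2-fold toward NTC, against 13.8% of all measured genes. Among them Krt19 had 2.56 FPKM in TIC and 1176 FPKM in NTC. The remaining luminal marker, Pgr, had 4.68 FPKM in TIC and 2.95 FPKM in NTC.

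The sequence just upstream of the start holds some of the sites through which signals reach such genes, and it is shown for 2 genes that were lower in TIC (Fos and Fosb), 2 with similar levels (Jun and Junb) and 1 that was higher (Egr2). Each stretch is the 120 bases before the RefSeq start (build GRCm38.p6), written 5′ to 3′ on the strand of the gene, and capitals mark every match to 1 of the 5 motifs searched.
Fos, chr12:85473770-85473889, plus strand: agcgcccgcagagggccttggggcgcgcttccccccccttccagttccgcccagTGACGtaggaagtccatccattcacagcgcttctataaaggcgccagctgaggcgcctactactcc
Fosb, chr7:19310046-19310165, minus strand: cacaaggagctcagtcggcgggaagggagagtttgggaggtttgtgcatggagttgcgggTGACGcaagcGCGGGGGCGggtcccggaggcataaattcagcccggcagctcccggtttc
Jun, chr4:95052223-95052342, minus strand: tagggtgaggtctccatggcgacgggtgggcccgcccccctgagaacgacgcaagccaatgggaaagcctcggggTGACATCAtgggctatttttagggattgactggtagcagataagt
Junb, chr8:84978749-84978868, minus strand: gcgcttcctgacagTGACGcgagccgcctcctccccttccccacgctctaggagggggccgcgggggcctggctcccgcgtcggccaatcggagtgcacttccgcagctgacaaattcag
Egr2, chr10:67537749-67537868, plus strand: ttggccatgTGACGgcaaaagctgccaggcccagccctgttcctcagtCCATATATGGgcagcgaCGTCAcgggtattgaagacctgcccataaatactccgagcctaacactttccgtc

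The motifs were the core of the cyclic AMP response element TGACG, a CRE-type site TGANNTCA, an AP-1-type site TGANTCA, an Egr-type site GCGNGGGCG and the CArG box bound by serum response factor. Each was sought on both strands of the 250 bases before the start, and the core can lie inside the CRE-type site. Of 32851 promoters in the RefSeq table, 17.8% held the core, 11.9% the CRE-type site, 6.75% the AP-1-type site, 4.70% the Egr-type site and 1.47% the CArG box. The table held 7 of the 10 genes, and the others are Fosl1, Egr1 and Egr3. In Fos the core began 66 and 129 bases before the start, in Fosb 60 and in Junb 106. Jun held a CRE-type site 45 bases before its start and Jund one 61 bases before. Egr-type sites lay 50 bases before the start of Fosb and 79 bases before that of Fosl2. For Egr2 the window was that of the start that gives the gene length in the deposited files. Within these 250 bases it was the one of the 7 with a CArG box, 72 bases before the start, beside 2 matches to the core. Bases farther upstream were not searched, so a gene without a match here may hold that site there. A match is a match of letters and no evidence of binding, and the core was found in genes that were lower (Fos, Fosb), near level (Junb) and higher (Egr2) in TIC.

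The measured AP-1 genes were level or lower in TIC, whereas 2 of the 3 Egr genes were far higher. Of the 10 genes, 9 were measured, each with over 1 FPKM in both libraries. At least 2-fold higher in TIC were 2 of the 9 (Egr2 and Egr3), against 14.6% of all measured genes, and at least 2-fold lower were 3 (Fos, Fosb and Jund), against 13.8%. In either direction 5 of 9 passed 2-fold, against 28.4% of all. The median log2 ratio of the 9 was -0.77, and that of all measured genes was -0.16. That shift touches genes close to the line: relative to the median gene, Fos stood at -0.96 and Jund at -0.98, so that Fosb alone stayed at least 2-fold lower, and the split of 2 higher and 3 lower became 2 higher and 1 lower.

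**Figure D1:**
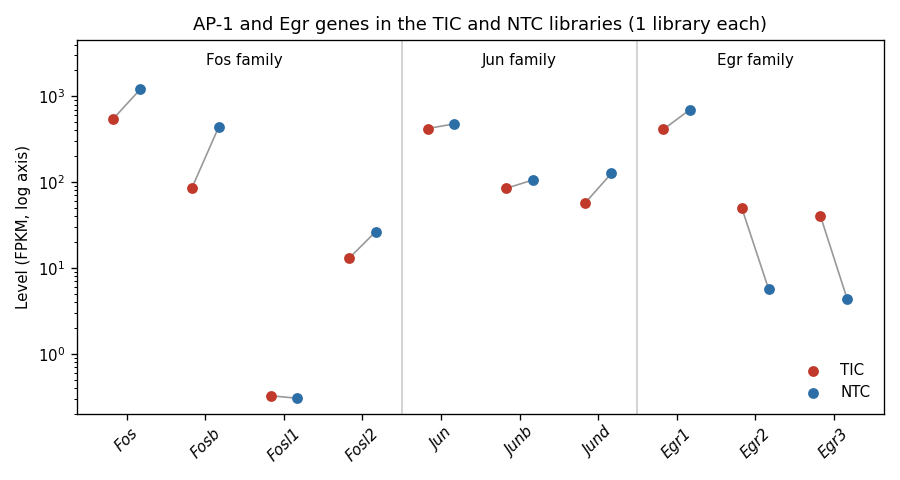
Level of each AP-1 and Egr gene in FPKM (log axis), with the TIC library as the left and the NTC library as the right point of each pair, 1 library each. The lines slope down to the right for Egr2 and Egr3 and steeply up for Fosb, while Jun is near level at 421.1 FPKM in TIC and 477.0 FPKM in NTC.

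The Fos family carried the larger AP-1 difference. Fos, the prototype of the family (chromosome 12, 86814851 to 86818219, build mm9), had 550.3 FPKM in TIC and 1202 FPKM in NTC, 2.18-fold lower, with a log2 ratio of -1.13. It was still the highest of the 10 genes in both libraries, with rank 51 of all genes in TIC and rank 22 in NTC. Fosb (chromosome 7, 19888045 to 19895394), whose full-length protein resembles Fos and whose short splice form lacks the C-terminal activation domain, had 85.9 FPKM in TIC and 439.0 FPKM in NTC, 5.11-fold lower, with a log2 ratio of -2.34. A ratio as low as that was found in 3.77% of measured genes. The deposited values are per gene, so the forms of Fosb cannot be told apart.

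The Fos-related antigens lack the strong activation domain of Fos and are known for slower and longer-lasting induction. Fosl2, which encodes Fra-2 (chromosome 5, 32438845 to 32460212), had 13.0 FPKM in TIC and 26.6 FPKM in NTC, with a log2 ratio of -0.98, just inside the 2-fold line. Fosl1, which encodes Fra-1 (chromosome 19, 5447698 to 5457563), had 0.325 FPKM in TIC and 0.303 FPKM in NTC and was the member that was not measured. Fra-1 is known as an AP-1 protein of mesenchymal and invasive breast cancer cells, and at this level its transcript made up 0.0500% of the Fos family sum in TIC and 0.0182% in NTC. Its exons overlap those of Ccdc85b on the opposite strand over 1163 of 2033 bases (GRCm38, GENCODE M21). The sources do not say that strand was used in counting, so part of its few reads may belong to Ccdc85b, which had 6.73 FPKM in TIC and 1.96 FPKM in NTC.

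Jun and Junb were the measured members with the closest levels in the 2 libraries. Jun (chromosome 4, 94715727 to 94718913), the partner that most AP-1 dimers contain, had 421.1 FPKM in TIC and 477.0 FPKM in NTC, with a log2 ratio of -0.18, nearly that of the median gene. Junb (chromosome 8, 87500808 to 87502647), a weaker activator that can oppose Jun, had 84.7 FPKM in TIC and 105.9 FPKM in NTC, with a log2 ratio of -0.32. Jund (chromosome 8, 73221638 to 73224515), known for steady expression in resting cells and not as an immediate early gene, had 56.6 FPKM in TIC and 126.5 FPKM in NTC. It was 2.24-fold lower in TIC, with a log2 ratio of -1.15, and was the member of this family past 2-fold. Jund shares 877 of 1668 exon bases with an antisense gene, Gm11175, Jun shares 232 of 3189 with Junos, and Junb shares 173 of 2301 with Prdx2 (GRCm38, GENCODE M21). Reads from these stretches cannot be assigned without strand.

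The Egr genes moved apart. Egr1 (chromosome 18, 35020861 to 35024610), the most widely induced member, had 410.7 FPKM in TIC and 699.4 FPKM in NTC, with a log2 ratio of -0.77. Egr2 (chromosome 10, 67000617 to 67004936), known as Krox20 and for its role in Schwann cell myelination and hindbrain patterning, had 49.6 FPKM in TIC and 5.70 FPKM in NTC, 8.71-fold higher, with a log2 ratio of 2.92. Egr3 (chromosome 14, 70477252 to 70479964), needed for the development of muscle spindles, had 40.4 FPKM in TIC and 4.37 FPKM in NTC, 9.25-fold higher, with a log2 ratio of 2.95. Ratios as high as that of Egr2 were found in 3.92% of measured genes. Egr2 stood above 89.4% of the measured genes in TIC but above 30.8% in NTC, and Egr3 above 86.4% in TIC and 25.2% in NTC. Egr2 and Egr3 kept nearly the same proportion to each other, with Egr2 at 123% of Egr3 in TIC and at 130.4% in NTC.

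Because FPKM are per length, the make-up of a family within a library can be read without any scaling between libraries. Egr1 made up 82.0% of the Egr sum in TIC against 98.6% in NTC, Egr2 made up 9.91% against 0.803%, and Egr3 8.07% against 0.616%. Relative to Egr1, Egr2 was thus 14.8-fold and Egr3 15.8-fold higher in TIC. In the Fos family, Fosb held 13.2% in TIC against 26.3% in NTC, while Fos held 84.7% against 72.1% and Fosl2 2.0% against 1.59%. Fosb was at 15.6% of the level of Fos in TIC and at 36.5% in NTC. The fold of TIC over NTC was thus lower for Fosb than for Fos on any scaling of the libraries. Jun made up 74.9% of the Jun sum in TIC against 67.2% in NTC, Junb 15.1% against 14.9%, and Jund 10.1% against 17.8%.

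**Figure D2:**
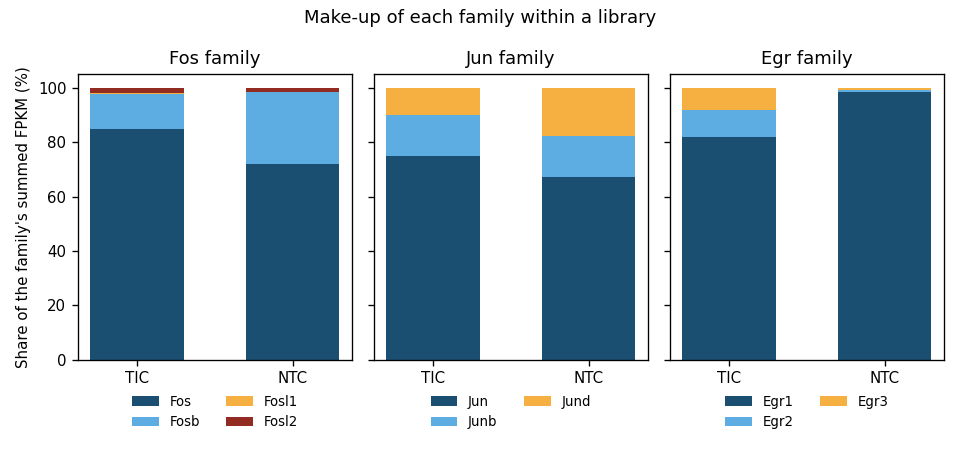
Share of each member in the summed FPKM of its family (bars start at 0 and add up to all of the family), with TIC left and NTC right. Egr2 and Egr3 are visible parts of the Egr bar in TIC (9.91% and 8.07%) and thin ones in NTC, and Fosb takes 13.2% of the Fos bar in TIC against 26.3% in NTC.

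The summed levels shifted the balance between Fos and Jun transcripts. The Fos family summed to 649.5 FPKM in TIC and 1667 FPKM in NTC, the Jun family to 562.3 against 709.4 FPKM, and the Egr family to 500.8 against 709.4 FPKM. Of all 10 genes together, the Fos family held 37.9% in TIC against 54.0% in NTC, the Jun family 32.8% against 23.0%, and the Egr family 29.2% against 23.0%. Fos alone stood at 131% of the level of Jun in TIC and at 252% in NTC. In TIC the order of levels was Fos, Jun, Egr1, Fosb, Junb, Jund, Egr2, Egr3, Fosl2 and Fosl1. In NTC it was Fos, Egr1, Jun, Fosb, Jund, Junb, Fosl2, Egr2, Egr3 and Fosl1. Without replicates the spread of a level is not known, and close neighbours such as Jun and Egr1, or Fosb and Junb, in TIC, or Jund and Junb in NTC, are not ordered beyond these libraries.

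**Figure D3:**
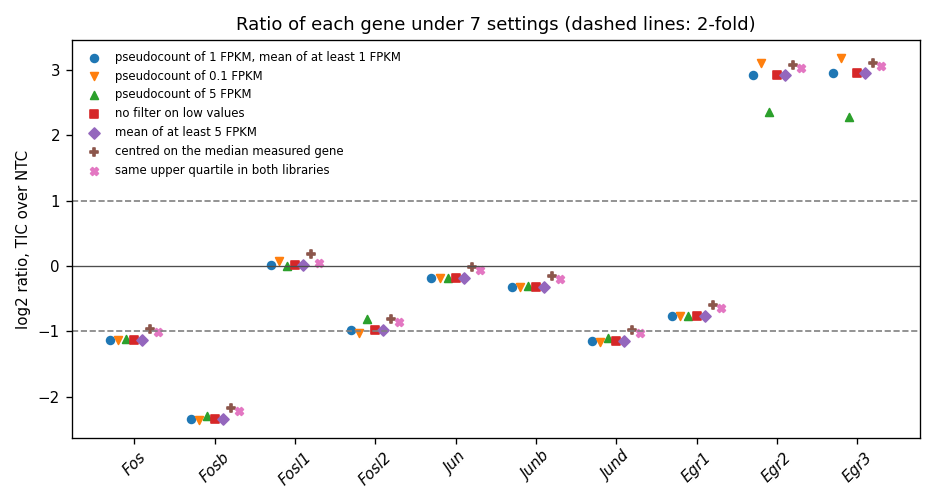
The log2 ratio of TIC over NTC of each gene under 7 settings of pseudocount, filter and scaling, with dashed lines at 2-fold. Egr2, Egr3 and Fosb stay outside the lines under all of them, and Fos, Jund and Fosl2 sit at the lower line.

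Genes with the nearest pair of levels were sought for the highest member of each family, a likeness over 2 libraries only. Near Fos were Hspa8 and Gm5148, at distances of 0.45 and 0.52 on the log2 scale. Nearest to Jun were Ldha, Hspa5 and Rpl13, at 0.080, 0.17 and 0.19. Nearest to Egr1 were Rps26, Rplp0 and Itm2b, at 0.019, 0.050 and 0.064. Rpl13, Rps26 and Rplp0 carry values that the files give for several gene identifiers, so their own levels are uncertain.

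Regulators upstream of the members passed 2-fold in about the shares of all measured genes, and the ETS genes Elk3 and Ets1 had the largest ratios of the list. Of 36 genes on this list 35 were measured, 6 of them at least 2-fold higher in TIC and 4 lower by as much (14.6% and 13.8% of all measured genes), around a median log2 ratio of 0.20. Srf, the serum response factor that binds the CArG box, had 50.1 FPKM in TIC and 17.5 FPKM in NTC, with a log2 ratio of 1.47. Its ETS partners Elk3 and Elk4 had 59.6 against 3.75 FPKM and 50.2 against 32.3 FPKM, and Elk1 had 11.5 against 5.49 FPKM. Elk3 (Net), which represses Fos until it is phosphorylated, had a log2 ratio of 3.67 and thus the largest of the list. Ets1, a factor with AP-1 as a frequent neighbour on DNA, had 68.1 FPKM in TIC and 6.01 FPKM in NTC, whereas its relative Ets2 had 33.2 against 79.7 FPKM.

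Of the kinases, the ERK gene Mapk3 had 44.9 FPKM in TIC and 118.9 FPKM in NTC, with a log2 ratio of -1.39. Mapk7, the larger ERK5 kinase, had 7.46 against 4.46 FPKM. The JNK genes, whose products phosphorylate Jun, had 4.59 against 3.03 FPKM (Mapk8) and 9.42 against 14.3 FPKM (Mapk9), and Mapk10 was listed at 0 in both libraries. Of the p38 genes, Mapk13 had 9.98 against 27.1 FPKM and Mapk12 0.0301 against 2.08 FPKM, both at least 2-fold lower, while Mapk14 had 24.2 against 24.7 FPKM and Mapk11 1.32 against 2.03 FPKM. Rps6ka2, an RSK kinase downstream of ERK, had 2.99 FPKM in TIC and 0.454 FPKM in NTC. A transcript level says nothing of the activity of these kinases.

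**Figure D4:**
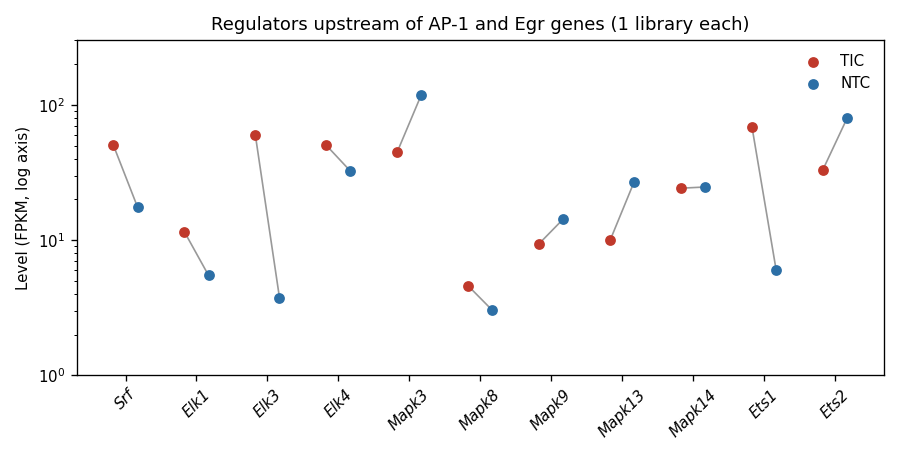
Levels in FPKM (log axis) of serum response factor, 5 ETS factors and 5 MAP kinase genes of the list of upstream regulators, with TIC as the left and NTC as the right point of each pair, 1 library each. Elk3 (59.6 FPKM in TIC, 3.75 FPKM in NTC) and Ets1 (68.1 FPKM in TIC, 6.01 FPKM in NTC) have the steepest lines of the 11 genes drawn, which leave out Mapk12, and Mapk14 is level.

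Among bZIP proteins that can pair with AP-1 proteins, 18 of 22 were measured, 2 of them at least 2-fold higher in TIC and 2 lower by as much (14.6% and 13.8% of all measured genes), around a median log2 ratio of -0.17. Atf3, a stress-induced repressor and partner of Jun, had 46.0 FPKM in TIC and 179.3 FPKM in NTC, with a log2 ratio of -1.94. Jdp2, which dimerizes with Jun and represses AP-1 sites, had 8.82 FPKM in TIC and 2.13 FPKM in NTC, and Nfe2l2, the NRF2 regulator of antioxidant genes, had 170.9 against 51.7 FPKM. Batf had 9.85 against 6.16 FPKM, with a value the files give for several gene identifiers. The Egr corepressors, which Egr proteins induce and which then restrain them, had similar levels, with 28.6 FPKM in TIC and 25.2 FPKM in NTC for Nab2 and 9.10 against 12.9 FPKM for Nab1. Egr4, the remaining Egr gene, had 0.168 against 0.362 FPKM.

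Other immediate early genes included some with higher and some with lower levels in TIC. Of 46, 45 were measured, 7 of them at least 2-fold higher in TIC and 10 lower by as much (14.6% and 13.8% of all measured genes), around a median log2 ratio of -0.32. Arc, a neuronal activity gene and known Egr target, had 21.2 FPKM in TIC and 0.966 FPKM in NTC. Gem, a small GTPase, had 6.91 against 0.593 FPKM, Socs3, the feedback inhibitor of cytokine receptors, 141.8 against 30.3 FPKM, and Ptgs2, cyclooxygenase 2, 2.95 against 0.0799 FPKM. On the other side were Nfkbia, the inhibitor of NF-kB, with 3.66 FPKM in TIC and 33.2 FPKM in NTC, Klf2 with 1.17 against 14.6 FPKM, and Cyr61, a matrix signal protein, with 85.0 against 344.4 FPKM, together with Atf3. Dusp1 (157.5 against 155.3 FPKM) and Nr4a1 (121.7 against 116.6 FPKM), singled out after their values were seen as genes often induced together with Fos, were near equal. Zfp36 (487.2 against 802.1 FPKM) and Ier2 (73.3 against 128.4 FPKM), chosen in the same way, were lower within 2-fold.

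A list of 14 heat shock and chaperone genes, some of which answer to handling stress too, was measured in full. None was at least 2-fold lower in TIC, against 13.8% of all measured genes. Bag3, a co-chaperone, was the member at least 2-fold higher, against 14.6% of all measured genes. It had 107.3 FPKM in TIC and 30.4 FPKM in NTC, and the median log2 ratio of the list was -0.20. The part of handling stress in the AP-1 and Egr differences was not tested.

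**Figure D5:**
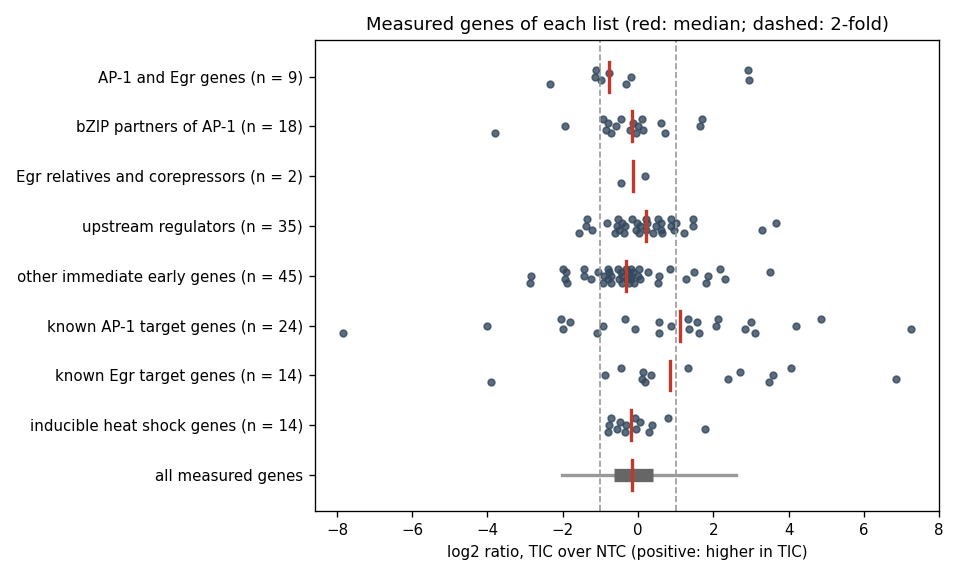
The log2 ratio of TIC over NTC of each measured gene (points) of the AP-1 and Egr genes and of the lists around them, with the median of each list in red and dashed lines at 2-fold. For all measured genes the thick bar spans the middle from percentile 25 to 75 and the thin line from 5 to 95, around a median of -0.16, and Egr2 and Egr3 lie right of that line.

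Markers of other cell types were mostly near 0 in both libraries. Of 12 leukocyte markers found, 5 were listed at 0 in both, Ptprc and Cd3e among them, and the 12 summed to 2.78 FPKM in TIC and 7.34 FPKM in NTC. The 7 endothelial markers summed to 3.08 against 1.01 FPKM, and the 5 erythroid markers to 0.518 against 6.20 FPKM. Fibroblast markers were higher in TIC, with sums of 176.9 FPKM in TIC and 2.44 FPKM in NTC. Of the 9, 5 were measured, and all 5 were at least 2-fold higher, against 14.6% of all measured genes. Dcn gave 151.8 FPKM of that sum in TIC. Col1a2 had 9.56 FPKM in TIC and 0.0119 FPKM in NTC, Pdgfra 8.83 against 0.513 FPKM and Pdgfrb 2.44 against 0.0701 FPKM, and Thy1 3.06 FPKM in TIC against a listed 0 in NTC. Of the markers that were not measured, Col1a1 had 0.459 against 0.339 FPKM, Col3a1 0.221 FPKM and Lum 0.573 FPKM in TIC against a listed 0 in NTC, and Fap was listed at 0 in both. These markers thus moved in the same direction as Egr2 and Egr3, and their part in that difference was not tested. In sorted bulk cells, fewer cells that express a gene and less of its RNA per cell cannot be told apart, and the lineage of the sorted cells cannot be told apart from their tumour-initiating label.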

How the data were processed

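The values deposited by the authors are FPKM per gene, in 1 file for each library. Per the submitters' processing notes, TopHat 1.4.0, CASAVA 1.8.2, Cuffdiff, Cufflinks and build mm9 were used, with no role or setting given. The locus heading names a human build, but 99.7% of 20006 symbols shared with the RefSeq gene table lay on the same mouse chromosome. Gene positions are given in mm9, with 1 added to each start, since 124 genes with an unchanged end had a start 1 below that of GRCm38. Amplification from little RNA can change a gene's share of reads, and PCR copies are not independent molecules.

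From these values, log2 ratios used a pseudocount of 1 FPKM and a mean of at least 1 FPKM over both libraries (Python 3.11.15, pandas 2.3.3). FPKM are not counts and have no replicates here, so no count model or test was fitted. The ratio code was tested on simulated data. Depth was estimated from receptor genes with a locus below 1.5 kb (23 genes in TIC, 39 in NTC) and within a set window of 0.035 to 0.065 FPKM × kb. That window limits the depths the estimate can return, so it is rough and covers counting only. Of 243 list entries, 241 were found. Members and lists were chosen with earlier results of these data known. Named from each list were up to 4 genes on either side of 2-fold, taken by size of ratio, and genes tied directly to a member. Some genes that this rule takes are left out of the text. Pseudocounts of 0.1 and 5 FPKM, other filters and 2 rescalings were tried.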

Additional observations from a re-analysis of the deposited data

How the results depend on the processing

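Egr2 and Egr3 stayed at least 2-fold higher in TIC under all 7 settings, with log2 ratios of 2.35 to 3.10 and 2.28 to 3.18, and Fosb stayed at least 2-fold lower, from -2.35 to -2.18. The count of AP-1 and Egr genes at least 2-fold lower was 3 and became 1 when ratios were centred on the median measured gene, since Fos (-0.96) and Jund (-0.98) then lay inside the line. With a pseudocount of 0.1 FPKM it was 4, with Fosl2 at -1.03. Over all measured genes, a pseudocount of 5 FPKM gave 1086 higher and 921 lower, and a minimum mean of 5 FPKM gave 1108 higher, against 1749 and 1658. No ratio of a measured member changed sign, and Jun came closest to 0, at -0.016 after centring. The other immediate early genes numbered 5 to 8 higher and 7 to 10 lower over the settings. No paired analysis was possible because each group has 1 library, and for the same reason no replicate could be left out. Fosl1 and Egr4 were below 1 FPKM in both libraries, and no difference is read from their values.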

Other observations

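Genes known as AP-1 targets in other systems differed between the libraries in both directions. Of 34 such genes 24 were measured, 12 of them at least 2-fold higher in TIC and 6 lower by as much (14.6% and 13.8% of all measured genes), around a median log2 ratio of 1.10. Krt5, a basal keratin that is also on the basal marker list, had 782.8 FPKM in TIC and 4.13 FPKM in NTC. Plau, the urokinase protease, had 32.7 against 0.155 FPKM, the receptor kinase Axl 27.6 against 0.553 FPKM, and the fibronectin receptor chain Itga5 15.6 against 0.921 FPKM. Lower in TIC were Spp1, osteopontin, with 1.04 against 464.1 FPKM, the EGFR ligand Areg with 0.397 against 21.5 FPKM, the metallothionein Mt2 with 38.9 against 165.0 FPKM, and the cytokine Lif with 0.705 against 5.84 FPKM. Of the secreted metalloproteases on this list, Mmp1a and Mmp10 were listed at 0 in both libraries. Mmp3 (0.0266 FPKM in TIC), Mmp9 (0.182 against 0.0219 FPKM), Mmp12 (0.0130 FPKM in NTC) and Mmp13 (0.338 FPKM in TIC) were far below 1 FPKM. The membrane-bound metalloprotease Mmp14 of the same list had 214.4 FPKM in TIC and 28.9 FPKM in NTC, with a log2 ratio of 2.85.

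Of 20 Egr targets 14 were measured, 7 of them at least 2-fold higher in TIC and 1 lower by as much (14.6% and 13.8% of all measured genes), around a median log2 ratio of 0.84. Id4, an inhibitor of basic helix-loop-helix factors, had 146.7 FPKM in TIC and 0.275 FPKM in NTC. Plat, the tissue plasminogen activator, had 36.3 against 1.23 FPKM, Fn1, fibronectin, 12.1 against 0.0849 FPKM, and Pdgfa, a growth factor chain, 199.6 against 17 FPKM. F3, the tissue factor of coagulation, was the member at least 2-fold lower, with 1.91 against 42.8 FPKM. Several of these genes are also known to differ between basal and luminal mammary cells, and the part of that difference in these values was not tested.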
